A study of Mus musculus with 6 samples.

Results

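The genes examined here are those of germ cells: genes of meiosis, genes of the piRNA pathway and regulators of germ cell identity. A list of 42 mouse symbols was matched to the probe sets that the platform annotation assigns to 1 such symbol alone, and where a gene had several, the probe set brightest on average across the 6 arrays was taken. This gave 39 measured genes of 18193 in all, namely 17 of meiosis, 12 of the piRNA pathway and 10 regulators or other germ cell genes. Tdrd6, Nanos2 and Nanos3 were not analysed here.

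Meiosis is the pair of divisions that makes haploid gametes. Homologous chromosomes are aligned along an axis of cohesin and HORMA-domain proteins, zipped together by the synaptonemal complex and joined by recombination. The piRNA pathway is the defence of the germline against transposons: PIWI proteins carry small RNAs that guide the silencing of transposon transcripts, and Tudor-domain proteins assemble the machinery. In embryonic stem (ES) cells most of these genes are held low by DNA methylation and by a Polycomb complex that contains E2F6, MGA and PCGF6, although a subset is transcribed in the naive state.

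The 6 arrays came from ES cells of the 129SV strain. The first group was wild type, and the other carried a knockout of Med23, part of the Mediator complex, which connects transcription factors with RNA polymerase II. Each group held 3 biological replicates, harvested after 24 hours in fresh complete ES cell medium. The sources used here do not say whether a genotype was 1 clone or several, so the loss of Med23 and any further difference between the lines cannot be told apart. All values are the deposited log2 expression levels, and a difference is knockout minus wild type on that scale, so that 1 unit is a 2-fold change. The median over all probe sets was 4.62 (log2), and a level below it is called dim here, because its distance from background is not known.

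The stretch just upstream of the gene start is shown for 6 of the genes, since the members that rose together could be compared by their promoter letters. The sequences are from RefSeq (GRCm38.p6), run 5′ to 3′ on the strand of the gene over the 250 bases that end at its start, and were found for 32 of the 39 genes. Capitals mark the E-box CACGTG, the letters that MGA and MAX bind, and GCGGGA or its reverse complement TCCCGC, the core of E2F sites. Hormad1, Sycp3, Mael and Slc25a31 rose in the knockout and hold an E-box, Rhox5 rose without either motif, and Rec8 fell.
Hormad1, chr3:95559427-95559676 (plus strand): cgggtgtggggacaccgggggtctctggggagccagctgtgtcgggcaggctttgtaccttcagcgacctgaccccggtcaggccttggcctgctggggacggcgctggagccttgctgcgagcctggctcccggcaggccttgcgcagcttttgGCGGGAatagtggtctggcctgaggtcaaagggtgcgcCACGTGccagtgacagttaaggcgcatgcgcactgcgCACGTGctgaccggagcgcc
Sycp3, chr10:88459337-88459586 (plus strand): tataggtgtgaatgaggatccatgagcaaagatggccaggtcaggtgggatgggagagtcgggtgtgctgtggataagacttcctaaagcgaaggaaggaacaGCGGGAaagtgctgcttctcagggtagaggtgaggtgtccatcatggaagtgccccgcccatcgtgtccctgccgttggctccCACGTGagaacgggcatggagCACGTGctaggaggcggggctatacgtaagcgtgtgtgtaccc
Mael, chr1:166238745-166238994 (minus strand): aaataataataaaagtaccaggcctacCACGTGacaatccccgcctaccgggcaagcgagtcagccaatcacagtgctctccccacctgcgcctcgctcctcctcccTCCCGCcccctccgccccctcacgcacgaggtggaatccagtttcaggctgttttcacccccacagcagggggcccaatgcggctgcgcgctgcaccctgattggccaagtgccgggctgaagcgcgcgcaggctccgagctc
Slc25a31, chr3:40708621-40708870 (plus strand): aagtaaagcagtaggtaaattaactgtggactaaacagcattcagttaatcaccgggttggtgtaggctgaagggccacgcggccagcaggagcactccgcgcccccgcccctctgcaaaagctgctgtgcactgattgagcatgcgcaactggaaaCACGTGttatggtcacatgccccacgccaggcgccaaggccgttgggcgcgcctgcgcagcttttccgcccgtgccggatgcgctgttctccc
Rhox5, chrX:37754358-37754607 (plus strand): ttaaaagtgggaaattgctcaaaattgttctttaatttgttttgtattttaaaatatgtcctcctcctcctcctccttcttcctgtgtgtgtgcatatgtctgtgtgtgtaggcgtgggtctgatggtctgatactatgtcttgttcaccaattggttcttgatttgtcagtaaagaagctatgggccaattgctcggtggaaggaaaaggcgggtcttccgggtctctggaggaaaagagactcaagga
Rec8, chr14:55617916-55618165 (plus strand): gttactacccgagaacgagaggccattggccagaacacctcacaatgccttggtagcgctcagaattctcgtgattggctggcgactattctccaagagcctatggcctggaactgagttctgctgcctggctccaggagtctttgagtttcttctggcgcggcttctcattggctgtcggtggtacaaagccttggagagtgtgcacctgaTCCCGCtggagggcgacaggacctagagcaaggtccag

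Of the 32 promoters, 14 (43.8%) held at least 1 CACGTG, against 7.58% of the promoters of 14452 genes measured on these arrays and 6.04% of all 27025 promoters in the table. The E2F letters stood in 12 (37.5%), against 25.1% and 16.9%, and the members' median number of CG pairs was 15, against 13 for the measured genes. Hormad1 and Sycp3 each held a pair of E-boxes close to the start, at 57 and 20 bases and at 64 and 43 bases before it. Pairs also stood farther out in Piwil1 (179 and 154 bases) and Tdrd9 (165 and 95 bases), and single E-boxes lay 11 and 29 bases before the start of Tdrd1 and Ddx4. None of these 4 genes passed the test. The E-box was as frequent in members that did not pass the test, 7 of 15, as in those that rose, 7 of 14, while the 3 lower members with a promoter here held none. Of 15 promoters of other meiosis genes, described further on, 1 held it. A match of letters is a description of the window and does not show that a factor binds there.

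Before the comparison, the arrays and the cells were checked. The targeted gene itself was lower: the single Med23 probe set gave 8.95, 8.86 and 8.84 in the wild-type arrays and 7.40, 7.37 and 7.33 in the knockout arrays, levels well above the median of all probe sets. Where that probe set lies relative to the deletion was not known. The pluripotency genes Pou5f1, Nanog and Sox2 had means between 11.54 and 12.96 in both groups. Wild-type replicate 1 stood apart from its group, where 752 probe sets were lower by 2-fold or more than in replicates 2 and 3 on average. Endoderm markers were lower in the knockout: 17 of 20 fell, and their mean level lay between 7.24 and 7.59 in the wild-type arrays and between 5.49 and 5.56 in the knockout arrays, with Afp and Ttr dim in both groups. On the Y chromosome, Eif2s3y and Uba1y had means of 3.04 and 2.82 in wild type and 9.87 and 9.02 in the knockout. Kdm5d and Uty had means of 2.30 and 3.16 in wild type and 5.07 and 5.92 in the knockout. The wild-type means of these Y-linked genes were dim, and their knockout means were not. Of 8 measured genes of sex chromosome dosage 5 rose (62.5%, against 8.53% of all genes) and 3 did not pass. Among the latter, the X-linked Xist was 6.46, 6.85 and 6.98 in wild type and 7.25, 7.12 and 7.44 in the knockout (limma adjusted p = 0.0668). The groups thus differed in Y-linked levels as well as in Med23. These shifts move with genotype in every comparison below, and their part in it was not tested. In bulk RNA, more cells that express a gene and more RNA per cell cannot be told apart.

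The comparison asks which germline genes differ between the Med23 knockout and the wild-type ES cells under steady culture. Genes of meiosis, piRNA biogenesis and germ cell identity rose more often than they fell in the knockout. Of 39 measured members, 16 rose (41.0%) and 5 fell (12.8%) at a limma adjusted p under 0.05, and 18 did not pass. Over all 18193 genes the same test called 8.53% higher and 10.4% lower, and over all probe sets 6.69% and 7.43%. Members were chosen with earlier results of these data known. The shares here and below therefore describe the list and are not independent evidence of a rise. The rises were led by Mael, Hormad1, Rhox5, Dazl and Mov10l1, which were 2.05-fold to 2.56-fold higher. For Hormad1 and Dazl, wild-type replicate 1 was dim (4.34 and 4.30). Without that array their differences were 0.94 and 0.71, each under 2-fold. Slc25a31 had a measured difference between 2.05-fold and 2.56-fold as well, but its 3 wild-type arrays were dim, so the size of its change is uncertain. The falls were those of Rec8, Rhox6 and Rhox9, each over 2-fold, and of Tdrd5 and Piwil4. The members' median difference was 0.21, and that of all genes was 0.02.

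Among genes whose mean over the 6 arrays exceeded 4.62, 13 of 23 members rose (56.5%) and 4 fell (17.4%), against 12.2% and 14.5% of 11606 such genes. Of the 16 members at or below that level 3 rose (Tex12, Smc1b and Slc25a31) and 1 fell (Piwil4), against 2.06% and 3.08% of 6587 genes. At least 2-fold changes past the test were seen in 6 members that rose, Slc25a31 with its dim wild-type level included, and 3 that fell, against 0.676% and 1.93% of all genes. Hormad1 and Dazl, counted among those that rose, were under 2-fold without wild-type replicate 1. The arrays of the groups did not overlap for 18 members that were higher and 9 that were lower, against 21.4% and 19.5% of all genes. Leaving out wild-type replicate 1 gave 17 higher and 6 lower members. The lowest counts came from leaving out a knockout array: 13 rose without any 1 of the 3, and 3 fell without knockout replicate 2 or 3.

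**Figure D1:**
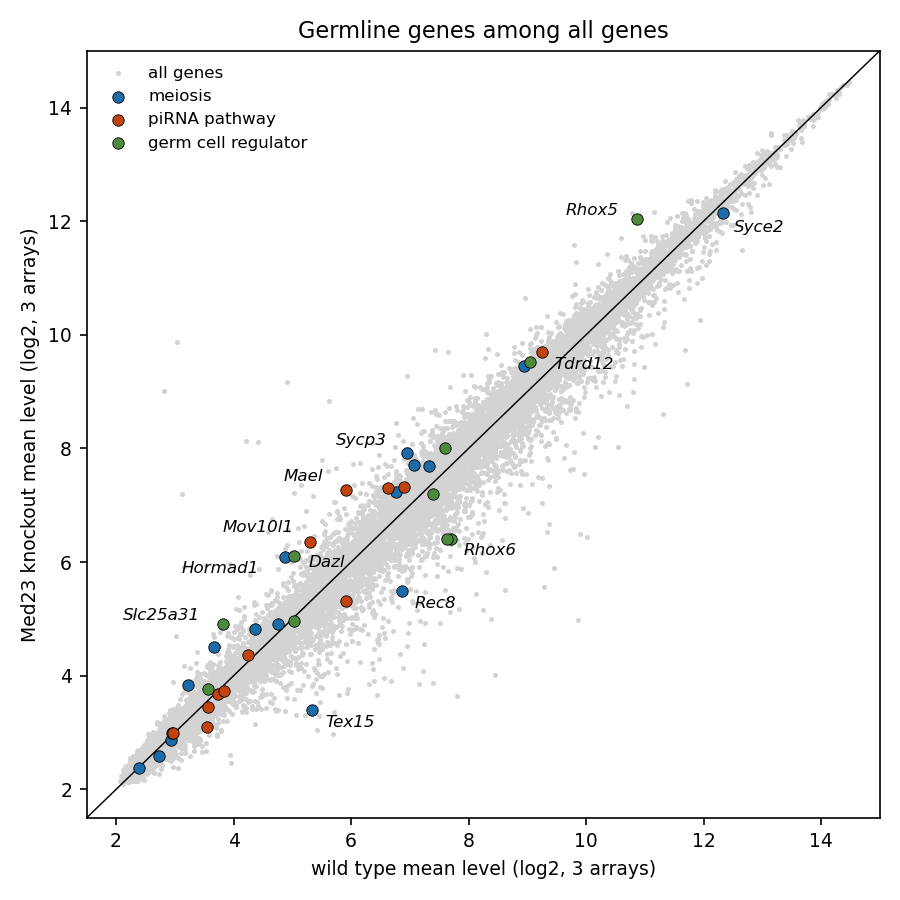
Mean log2 level of each gene in 3 wild-type arrays (x axis) against 3 Med23 knockout arrays (y axis); grey points are all 18193 genes, coloured points are the 39 germline genes by role, and the line marks equal levels. Mael, Hormad1, Dazl, Mov10l1, Slc25a31 and Rhox5 lie above the line, and Rec8, Tex15 and Rhox6 lie below it.

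Meiosis genes were examined first, beginning with the chromosome axis and the synaptonemal complex. Of 8 such genes 4 rose, 4 did not pass and the knockout was not lower for any past the test, with 1 lower at an unadjusted p under 0.05. Hormad1, a HORMA-domain protein of unsynapsed axes, was 4.34, 5.32 and 4.99 in the wild-type arrays, in replicate order, and 6.11, 6.07 and 6.11 in the knockout arrays. Every knockout array lay above every wild-type array, and wild-type replicate 1 was the lowest. The difference was 1.21 (SE 0.22, limma adjusted p = 0.0123), a 2.32-fold rise, and 0.94 without wild-type replicate 1. Sycp3, a lateral element protein, was 6.51, 7.13 and 7.20 in wild type and 7.91, 7.91 and 7.93 in the knockout. The groups were again separate, and the difference was 0.97 (SE 0.17, adjusted p = 0.011), or 0.75 without wild-type replicate 1.

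Of the central element genes of the synaptonemal complex, Syce1 and Tex12 rose and Syce2 did not pass. Syce1 was 7.13, 7.08 and 7.03 in wild type and 7.70, 7.73 and 7.71 in the knockout, a difference of 0.64 (SE 0.06, adjusted p = 0.000743). Tex12, which forms the central element together with SYCE2, was dim in all arrays at 3.73, 3.81 and 3.47 in wild type and 4.60, 4.42 and 4.48 in the knockout. It rose by 0.83 (SE 0.10, adjusted p = 0.00235), a size that is uncertain because of its low level. Syce2 itself was far above the median of all probe sets, at 12.34, 12.31 and 12.35 in wild type and 12.14, 12.15 and 12.13 in the knockout. It was lower in all 3 knockout arrays without passing the test (-0.19, SE 0.06, adjusted p = 0.0699). Its call depended on the setting, with adjusted p between 0.00116 and 0.205 over the alternatives. Sycp1, the transverse filament gene, Sycp2 and the X-linked Tex11 were dim in both groups and did not pass. Their differences were -0.07, -0.01 and 0.60, the last with a 95% interval from 0.08 to 1.12.

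**Figure D2:**
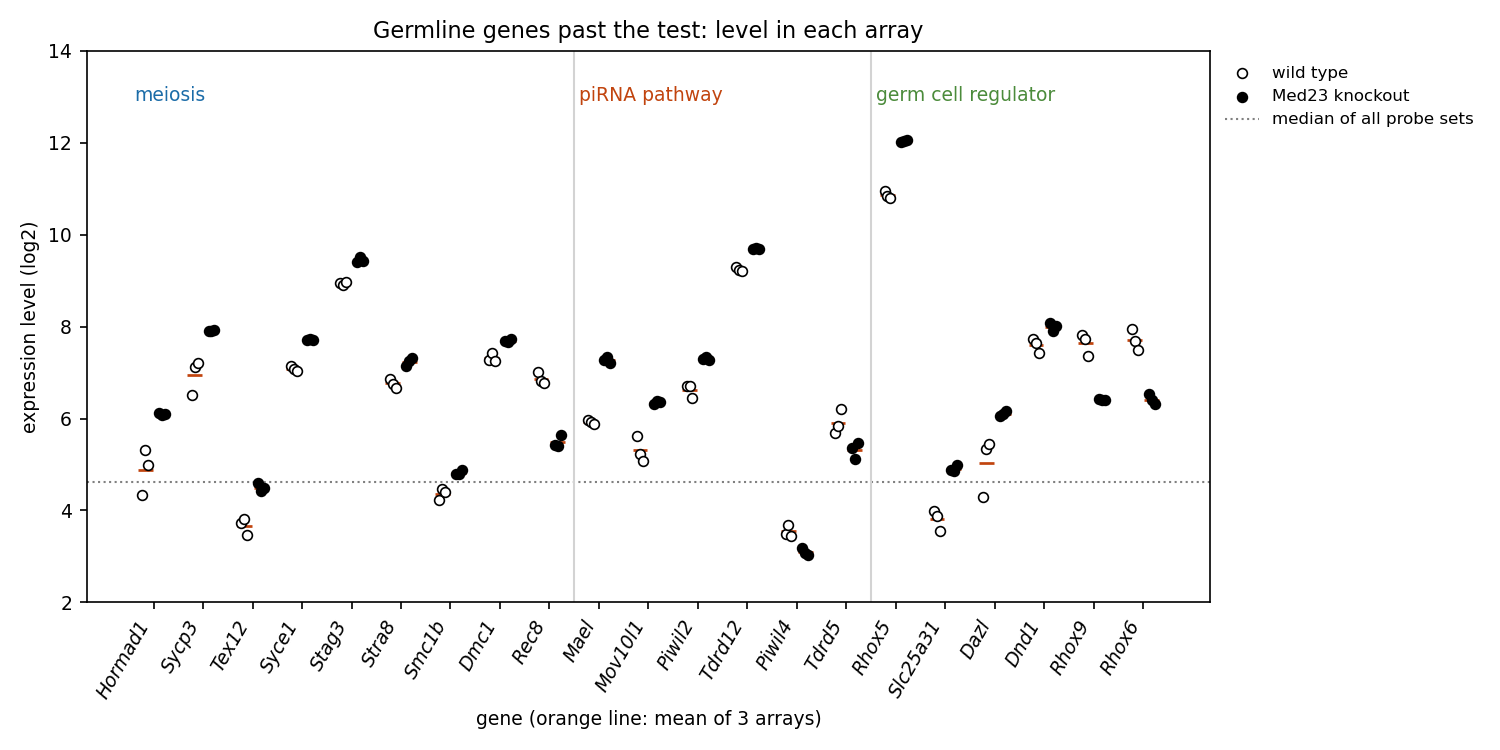
Log2 expression level (y axis) of the 21 germline genes past the test in each wild-type array (open circles) and each Med23 knockout array (filled circles), grouped by role; orange lines are means of 3 arrays and the dotted line is the median of all probe sets, 4.62. The circles of the groups are separate for every gene shown, 16 of them with the knockout higher and 5 with it lower.

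The meiotic cohesin subunits moved in opposite directions. Cohesin rings hold sister chromatids together, and germ cells replace several of the mitotic subunits. Stag3 was 8.94, 8.90 and 8.98 in wild type and 9.41, 9.52 and 9.43 in the knockout, a difference of 0.51 (SE 0.06, adjusted p = 0.00217). Smc1b was dim in wild type, at 4.24, 4.47 and 4.40, and close to the median of all probe sets in the knockout, at 4.79, 4.79 and 4.87. It rose by 0.45 (SE 0.08, adjusted p = 0.0099), a size that is uncertain because of its low level. Rec8, the kleisin subunit that closes the meiotic ring, fell instead. It was 7.01, 6.83 and 6.78 in wild type and 5.43, 5.41 and 5.64 in the knockout, with no overlap and a difference of -1.38 (SE 0.09, adjusted p = 0.000176), or 2.60-fold lower.

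Rec8 lies on chromosome 14 among genes that were lower as well. Its 20 nearest measured neighbours had a median difference of -0.81, and 18 of them fell past the test. The value of Rec8 minus that median was -0.57. No other member that passed had a neighbour median below -0.18, the value around Tdrd5. Piwil2, also on chromosome 14 but elsewhere, had neighbours with a median of -0.13 and rose.

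**Figure D3:**
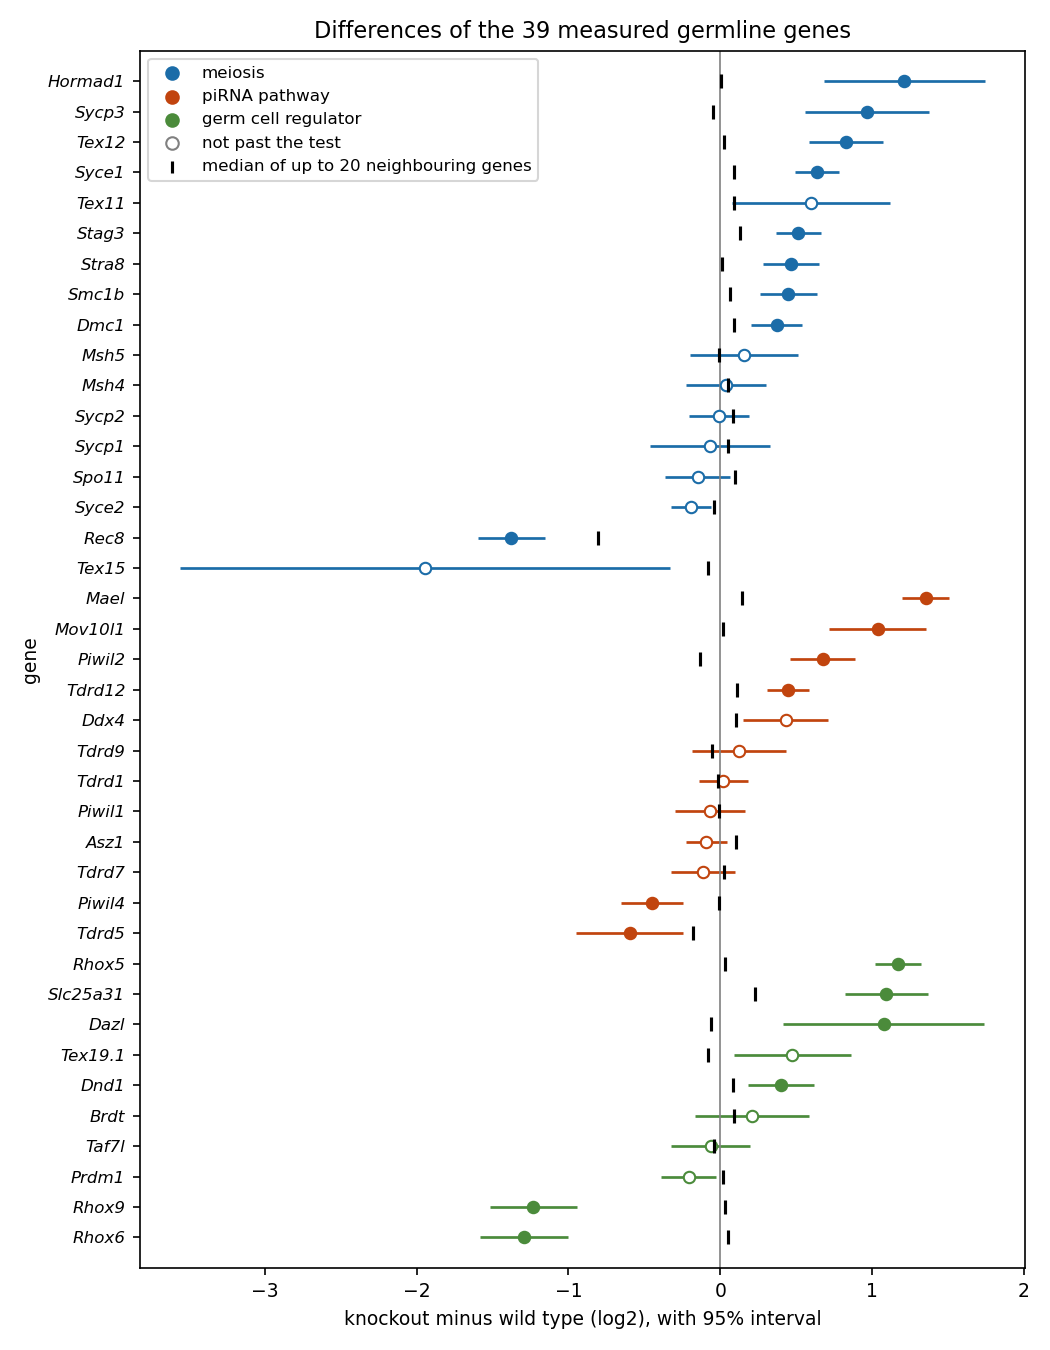
Knockout minus wild-type difference (log2, x axis) with its 95% interval for each of the 39 germline genes (y axis), coloured by role; filled circles passed the test, open circles did not, and black ticks are the median of 20 neighbouring genes on the chromosome. The tick lies near 0 for most genes and at -0.81 for Rec8.

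Of 5 genes of meiotic recombination 1 rose and 4 did not pass. Dmc1, the meiotic strand-exchange recombinase, was 7.28, 7.43 and 7.25 in wild type and 7.68, 7.67 and 7.73 in the knockout. The groups were separate, and the rise was 0.37 (SE 0.07, adjusted p = 0.0142). That call ended without knockout replicate 1, 2 or 3 (adjusted p up to 0.0652 without replicate 3), and a dimmer Dmc1 probe set gave 0.18 (adjusted p = 0.153). Msh5, which stabilises crossover intermediates, was 4.92, 4.66 and 4.70 against 4.83, 4.68 and 5.24 and did not pass (0.16, SE 0.15, adjusted p = 0.576). Its partner Msh4 and Spo11, the enzyme that makes the meiotic double-strand breaks, were dim in both groups. Stra8, the retinoic acid target that starts the meiotic programme, was 6.86, 6.76 and 6.67 in wild type and 7.14, 7.24 and 7.31 in the knockout, and rose by 0.47 (SE 0.08, adjusted p = 0.00841).

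Tex15, a gene needed for recombination and for transposon silencing in male germ cells, had the widest spread of the members. Its wild-type arrays read 3.92, 5.12 and 6.99 for replicates 1, 2 and 3, and its knockout arrays 3.60, 3.09 and 3.50. The knockout arrays were all lower, but the wild-type arrays alone spanned 3.07 log2 units. The difference of -1.94 (SE 0.68) did not pass (adjusted p = 0.118). It was -2.66 without wild-type replicate 1, where it passed (adjusted p = 0.0215), and -1.12 without wild-type replicate 3. It also passed with array weights (adjusted p = 0.0395), and adjusted p ran from 0.0215 to 0.27 over the alternatives.

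In the piRNA pathway, 4 of 12 measured genes rose, 2 fell and 6 did not pass. Mael, a component of the nuage granules in which piRNAs are made, showed the largest rise of the members that passed. It was 5.97, 5.92 and 5.87 in wild type and 7.27, 7.34 and 7.21 in the knockout. The gap between the groups far exceeded the spread within them, and the difference was 1.35 (SE 0.07, adjusted p = 5.06e-05), or 2.56-fold. Mov10l1, the helicase that feeds precursor transcripts to the PIWI proteins, was 5.62, 5.24 and 5.07 against 6.31, 6.38 and 6.35. It rose by 1.04 (SE 0.14, adjusted p = 0.00283).

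The PIWI genes did not move together. Piwil2 (MILI) was 6.71, 6.72 and 6.44 in wild type and 7.29, 7.34 and 7.27 in the knockout, a rise of 0.67 (SE 0.09, adjusted p = 0.00321). Piwil1 (MIWI), which acts later, in spermatids, was dim in both groups and did not pass (-0.07, SE 0.10, adjusted p = 0.732). Piwil4 (MIWI2), the nuclear PIWI protein of fetal male germ cells, was dim as well, at 3.50, 3.69 and 3.45 against 3.19, 3.07 and 3.03. It fell by 0.45 on the log2 scale (SE 0.09, adjusted p = 0.0151). Leaving out knockout replicate 2 or 3 ended that call (adjusted p up to 0.0657), and its other probe set did not pass (-0.17, adjusted p = 0.356).

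Tudor-domain genes, whose proteins bind methylated arginines of PIWI proteins, were likewise mixed. Tdrd12 was 9.30, 9.23 and 9.22 in wild type and 9.69, 9.71 and 9.69 in the knockout and rose by 0.45 (SE 0.06, adjusted p = 0.00301). Tdrd5 was 5.69, 5.83 and 6.21 against 5.36, 5.12 and 5.46, and fell, with a difference of -0.60 (SE 0.15, adjusted p = 0.0405). This was close to the threshold and was lost on leaving out any 1 array other than wild-type replicate 1 (adjusted p as high as 0.13 when knockout replicate 2 was left out). Tdrd1, Tdrd7, Tdrd9 and the mitochondrial scaffold gene Asz1 were dim in both groups and did not pass, with differences between -0.11 and 0.12. Ddx4, the VASA helicase gene that marks germ cells, fell just short of the threshold. It was 6.68, 7.14 and 6.88 in wild type and 7.41, 7.33 and 7.25 in the knockout, separate groups with a difference of 0.43 (SE 0.12, adjusted p = 0.056), and passed in 6 of 14 alternatives (adjusted p between 0.0208 and 0.164).

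Among regulators and other germ cell genes, 4 of 10 rose, 2 fell and 4 did not pass. The reproductive homeobox genes of the X chromosome, which are expressed in germ cells, gonadal somatic cells and placenta, were split. Rhox5 was 10.94, 10.83 and 10.81 in wild type and 12.01, 12.03 and 12.05 in the knockout, a rise of 1.17 (SE 0.06, adjusted p = 7.32e-05). Rhox6 was 7.94, 7.69 and 7.49 against 6.52, 6.40 and 6.31 and fell by 1.29 (SE 0.12, adjusted p = 0.00069). Rhox9 was 7.82, 7.73 and 7.35 against 6.42, 6.40 and 6.39 and fell by 1.23 (SE 0.12, adjusted p = 0.000878). In all 3 genes the groups were separate, and their neighbours had medians between 0.03 and 0.05. Rhox6 and Rhox9 are close copies of each other, and whether their probe sets read each other's transcripts was not tested. Of 12 other Rhox symbols listed, only Rhox13 was measured here, and it rose by 0.96 (SE 0.09, adjusted p = 0.000742).

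The RNA-binding regulators Dazl and Dnd1 rose. Dazl, a translational regulator that licenses germ cells for gametogenesis, was 4.30, 5.34 and 5.44 in wild type and 6.06, 6.09 and 6.15 in the knockout. The groups were separate and wild-type replicate 1 was the lowest. The difference was 1.08 (SE 0.28, adjusted p = 0.0459), and 0.71 without wild-type replicate 1. A dimmer Dazl probe set rose as well (1.22, adjusted p = 0.0285). The call of Dazl ended without wild-type replicate 2 or without any 1 knockout array (adjusted p as high as 0.128, when knockout replicate 3 was left out). Dnd1, which protects mRNAs from microRNAs in primordial germ cells, was 7.72, 7.65 and 7.44 against 8.08, 7.91 and 8.02. It rose by 0.40 (SE 0.09, adjusted p = 0.0304), a call kept without wild-type replicate 1 but lost on leaving out any other array (adjusted p as high as 0.107, when knockout replicate 1 was left out).

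Slc25a31, the ADP/ATP carrier of the germline, was 3.99, 3.88 and 3.56 in wild type and 4.88, 4.87 and 4.98 in the knockout. It rose by 1.10 (SE 0.12, adjusted p = 0.00114), from a dim level in wild type, so the size is uncertain. Tex19.1, which acts in transposon control and is expressed in ES cells, was 9.31, 9.18 and 8.65 against 9.51, 9.51 and 9.54. The groups were separate, but the difference of 0.48 (SE 0.16) did not pass (adjusted p = 0.108) except without wild-type replicate 1 (adjusted p = 0.0476, within a range up to 0.234). Prdm1, which encodes BLIMP1, the repressor that starts primordial germ cell specification downstream of BMP signals, was 7.37, 7.33 and 7.50 against 7.10, 7.22 and 7.25. It was lower in all 3 knockout arrays without passing (-0.21, 95% interval -0.39 to -0.03, adjusted p = 0.137). Taf7l, a germ cell subunit of the general factor TFIID, was 5.19, 4.96 and 4.94 against 4.93, 5.15 and 4.81 and did not pass (-0.06, adjusted p = 0.781). Brdt, the testis bromodomain gene, was dim in all arrays and did not pass with its brightest probe set (0.21, adjusted p = 0.477), whereas 1 of its 3 probe sets did (0.49, adjusted p = 0.0069).

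The members differed in how far the wild-type arrays spread. For 31 of 39 members (79.5%) the range of the wild-type arrays exceeded that of the knockout arrays, as it did for 68.9% of all genes. Tex15 and Dazl had wild-type ranges over 1 log2 unit (3.07 and 1.14), or 5.13% of the members against 1.72% of all genes. Wild-type replicate 1 was below the mean of replicates 2 and 3 by 0.82 for Hormad1, 0.65 for Sycp3, 1.09 for Dazl and 2.14 for Tex15. For Mov10l1 and Tex19.1 it was the highest wild-type array, 0.46 and 0.39 above that mean. For Mael, Stag3, Syce1, Tdrd12 and Rhox5 the wild-type arrays spanned 0.07 to 0.13.

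Further genes of the same pathways were then examined in lists that do not share genes with the 39 members. These lists too were chosen with earlier results of these data known and were read on the same arrays. Their counts therefore describe the lists and are not independent evidence of a rise. Of 19 other meiosis genes 7 rose (36.8%) and 12 did not pass (median difference 0.39). Of all genes 8.53% rose, and 12.2% of those with a mean over 4.62, as 11 of the 19 had. Past the test, 0 fell by limma, and 0 were lower at an unadjusted p under 0.05. Rec114, a cofactor of double-strand break formation, was 6.98, 6.68 and 6.67 in wild type and 8.41, 8.47 and 8.48 in the knockout. This was a rise of 1.68 (SE 0.10, adjusted p = 8.60e-05), or 3.20-fold. Majin and Terb2, which tether telomeres to the nuclear envelope in meiosis, rose by 0.81 and 0.69, and Syce3, a central element gene, by 0.56. The wild-type means of Majin and Terb2 were dim (4.13 and 4.55), so the sizes of their changes are uncertain.

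Of 9 other piRNA pathway genes 4 rose (44.4%), 1 fell and 4 did not pass (median 0.31). A mean over 4.62 was found for 8 of the 9, and of all genes at such levels 12.2% rose and 14.5% fell. Gpat2, a mitochondrial acyltransferase family gene needed for piRNA production, was 5.68, 5.91 and 5.62 in wild type and 7.65, 7.68 and 7.64 in the knockout. It rose by 1.92 (SE 0.09, adjusted p = 3.55e-05), or 3.79-fold. Exd1, a partner of TDRD12, rose by 1.35, Gtsf1, a zinc finger cofactor of PIWI proteins, by 1.25 and Pld6, the mitochondrial nuclease or phospholipase of piRNA biogenesis, by 0.31. Tdrd3, a Tudor-domain gene whose part in the piRNA pathway was not examined here, fell by 0.57 on the log2 scale.

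**Figure D4:**
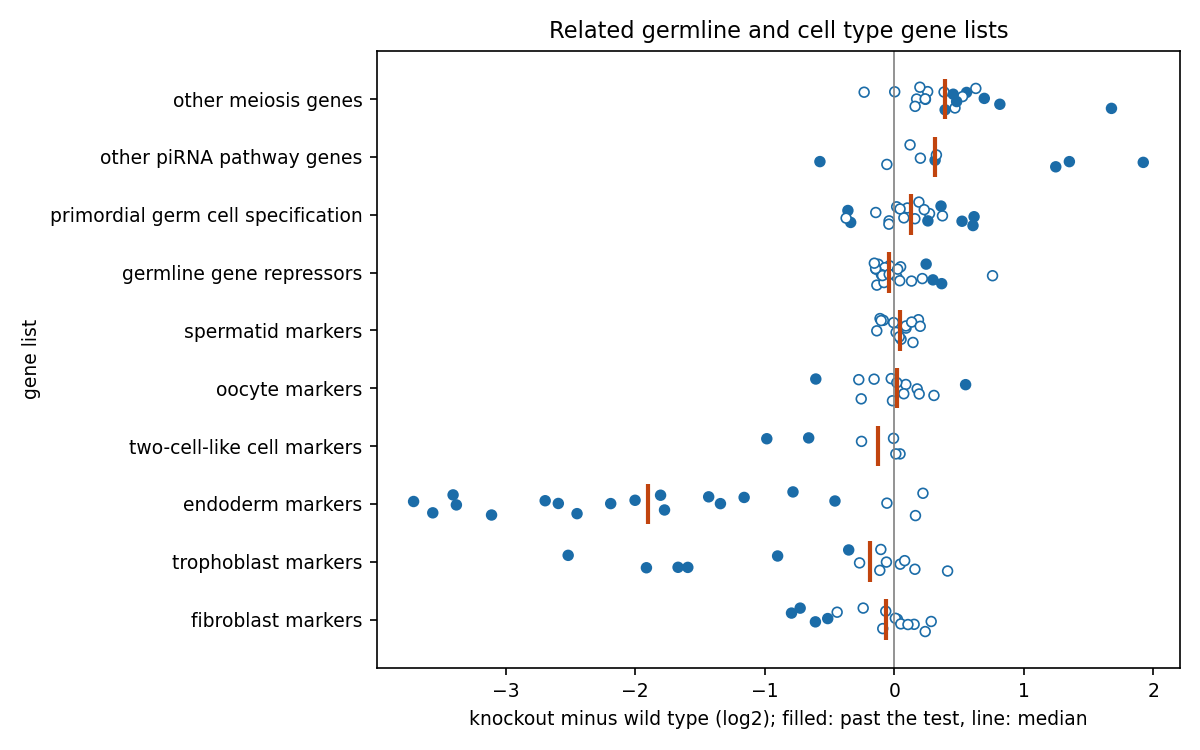
Knockout minus wild-type difference (log2, x axis) of every measured gene in 10 related lists (y axis); filled points passed the test, open points did not, and the orange line is the list's median. The medians are 0.39 for other meiosis genes and 0.31 for other piRNA pathway genes, close to 0 for spermatid and oocyte markers, and -1.90 for endoderm markers.

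Of 20 measured genes of primordial germ cell specification, many of which are also pluripotency genes, 5 rose (25.0%), 2 fell and 13 did not pass (median 0.13). Of the 20, 17 had a mean over 4.62, and of all genes at such levels 12.2% rose and 14.5% fell. Klf2, the interferon-induced transmembrane gene Ifitm3, the receptor gene Kit and the histone demethylase gene Kdm1a rose by 0.62, 0.61, 0.52 and 0.36. The genes that fell were Klf5, a Krüppel-like factor of pluripotency (-0.36, SE 0.09, adjusted p = 0.0352), and Dppa4 (-0.34, SE 0.06, adjusted p = 0.0097). Of 22 genes that keep germline genes repressed, namely DNA methyltransferases and components of the E2F6 and MGA complex and its histone-modifying partners, 3 rose and 19 did not pass (median -0.04). Past the test, 0 fell by limma, and 1 was lower at an unadjusted p under 0.05. All 22 had a mean over 4.62, and their share of rises, 13.6%, was near the 12.2% of all genes at such levels. The genes that rose were Dnmt3l (0.37), Dnmt3a (0.30) and Dnmt3b (0.25). Dnmt1 and its cofactor gene Uhrf1 did not pass (-0.04 and -0.12), nor did E2f6 (0.13), Mga (0.76, SE 0.43), Max (0.02) or Pcgf6 (-0.07). The difference of Mga was 0.19 without wild-type replicate 1, its lowest array.

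Genes of later germ cells were mostly dim. Of 14 spermatid markers, among them the protamine genes Prm1 and Prm2 and the transition protein genes Tnp1 and Tnp2, 0 passed by limma, with 2 higher at an unadjusted p under 0.05. Their mean level lay between 3.55 and 3.64 in the wild-type arrays and between 3.60 and 3.67 in the knockout arrays, and 2 of the 14, Prm1 and Ldhc, were above the median of all probe sets. Trophoblast and fibroblast markers, for other cells that an ES culture can hold, were lower where they passed. Of these, 6 of 14 and 4 of 15 fell, against 10.4% of all genes, with list medians of -0.19 and -0.07. The largest falls were those of Krt8, Krt7, Krt18 and Lgals3, and the 4 fibroblast markers were Tgfbi, Thy1, Twist1 and Timp3. Cdx2, Elf5, Hand1 and Gata3 did not pass, and Eomes was higher in all 3 knockout arrays without passing (0.41, limma adjusted p = 0.0804). The collagen genes Col1a1, Col1a2 and Col3a1 were dim in both groups. The part of these cells in the differences of germline genes was not tested.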

How the data were processed

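Levels were measured on Affymetrix arrays from total RNA of 3 wild-type and 3 Med23 knockout ES cell cultures, labelled as biotinylated cRNA per the labels' protocols. The authors deposited 1 table of log2 values; the log base is not stated and was inferred from their range. RMA and MAS5 are named without a role or version, per the submitters' processing notes. The values were used as deposited, with 0 columns of other samples. Of 45101 probe sets 64 controls were left out. The other 45037 were fitted by lmFit and eBayes of limma 3.58.1 (R 4.3.3; two-sided, Benjamini-Hochberg over all of them, threshold 0.05), which was tested on simulated data. The fit had 4 residual degrees of freedom, so the number of arrays limits the precision.

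A single symbol was annotated for 34945 probe sets, several for 932 and no symbol for 9160; 18032 of 18193 genes were placed in RefSeq order (GRCm38.p6) to take the 10 nearest genes per side above the median level. All 47 probe sets of members were fitted, and each member with a call or a group mean above that median is given array by array. Of each related list up to 4 called genes with the largest change are named. The other genes named there were chosen for their role. Klf5, Dppa4 and the trophoblast and fibroblast markers that did not pass were named after their values were seen. The promoter window is the outermost start of the gene in the RefSeq table. Members and lists were chosen with earlier results of these data known. Nothing says how the biological replicates were made, so p values cover only the spread among these samples, which may be technical.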

Additional observations from a re-analysis of the deposited data

How the results depend on the processing

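Of the 21 members past the test, 16 kept their call and direction in all 14 alternatives (13 for genes that the filter on dim probe sets removed), which were quantile normalization, centring, leaving out dim probe sets, an intensity trend, array weights, 2 other choices of probe set, the replicate block and leaving out each array. The other 5 were Dmc1, Tdrd5, Piwil4, Dazl and Dnd1, and 0 members reversed past the test. The members' median difference of 0.21 was 0.45 without dim probe sets, 0.37 with the probe set of largest variance, 0.15 with the median over probe sets, and 0.19 to 0.32 on leaving out 1 array. Counts on leaving out 1 array ran from 13 to 17 higher and from 3 to 6 lower members, and from 1497 to 3494 higher and 2289 to 3613 lower probe sets, against 3013 and 3346. Related lists had 26 higher and 33 lower genes, and 18 to 26 and 28 to 31 on leaving out 1 array. Replicate numbers showed no sign of pairing: deviations of same-numbered arrays correlated at -0.13, -0.06 and 0.00083, and no array correlated best with its own number. With 3 arrays per group this cannot exclude that the cultures were paired. With the replicate block, 14 members were higher and 5 lower, Dmc1 and Dnd1 lost their calls, and 1915 probe sets were higher. A value near or below 4.62 cannot be separated from background.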

Other observations

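Markers of oocytes and of 2-cell-like cells, a rare state of ES cultures that resembles the 2-cell embryo, are given as values. Of 13 oocyte markers 1 rose (7.69%), 1 fell and 11 did not pass. This was near the shares of all genes, 8.53% higher and 10.4% lower, and 3 of the 13 had a mean over 4.62. Ooep, a gene of the subcortical maternal complex, was 10.97, 10.93 and 10.87 in wild type and 11.48, 11.47 and 11.46 in the knockout, a rise of 0.55 (SE 0.06, limma adjusted p = 0.00139). Zp3, which encodes a protein of the egg coat, was 7.27, 6.98 and 7.02 against 6.50, 6.56 and 6.40 and fell by 0.61 (SE 0.09, adjusted p = 0.00591). Of 6 measured 2-cell-like markers 2 fell and 4 did not pass. Usp17la was 5.25, 5.19 and 4.94 in wild type and 4.25, 4.21 and 3.98 in the knockout, and the dim Tcstv1 fell by 0.66 on the log2 scale.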
